A study of Mus musculus with 7 samples.

Results

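The mitochondrial ribosomal protein genes were followed here in CD8 T cells taken from mouse tumors, as every gene row whose symbol was Mrpl or Mrps followed by a number and at most a letter from a to c. Of 53656 gene rows, 77 matched, and all 77 reached 10 counts in at least 3 libraries, so none lay just outside that minimum. The lowest count of any of them in any library was 17, for Mrpl53, and 73 had at least 100 counts in every library. 48 of the 77 symbols begin with Mrpl, the prefix of the large subunit, and 29 with Mrps, the prefix of the small subunit. They lie on 17 chromosomes, with 10 on chromosome 11, 8 on chromosome 17 and 7 on chromosome 6.

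The libraries came from OT1 CD8 T cells, which carry a T cell receptor for a peptide of ovalbumin. They were purified by flow cytometry on CD8 and the CD45.1 marker from tumors of B16-OVA-GP61, a B16 melanoma line named for ovalbumin and for a viral epitope that SMARTA CD4 T cells recognise. In 3 libraries (with SMARTA, replicates 1 to 3) SMARTA CD4 T cells were also present, and in 4 libraries (without SMARTA, replicates 1 to 4) they were not. Tumor line, CD8 receptor and sort were shared by all 7 libraries. The labels do not give the host strain, its age, the time of sorting or whether tumors were pooled, nor whether replicates came from separate animals, and every p-value here rests on the scatter among these libraries alone, which may be technical.

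Mitochondrial ribosomes translate the few proteins encoded by mitochondrial DNA, which are core subunits of the respiratory chain and of ATP synthase. Their RNAs come from mitochondrial DNA, whereas their proteins are encoded in the nucleus, made in the cytosol and imported. Activated T cells are known to enlarge their mitochondria and to raise mitochondrial translation as they begin to divide. Some of the proteins have bacterial counterparts and others are found only in mitochondria. Symbols do not always give the subunit: the products of Mrps30 and Mrps18a sit in the large subunit, and Mrps36 is now known as a component of the alpha-ketoglutarate dehydrogenase complex.

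The libraries held 38092722 to 49438357 counts, so that the smallest level a count of 3 stands for was 0.0608 to 0.0882 CPM (counts relative to the library's total as scaled by edgeR's TMM factors). The 8 T cell genes Cd3d, Cd3e, Cd3g, Cd8a, Cd8b1, Cd2, Thy1 and Lck summed to 10856 to 14040 CPM with SMARTA. Without SMARTA they summed to 8364 to 10891 CPM. Replicate 1 with SMARTA stood apart on the first principal component, replicate 3 with SMARTA was the lowest on the second and replicate 2 without SMARTA stood apart on the third. The 7 erythroid markers summed to 5061, 10.0 and 239 CPM in replicates 1 to 3 with SMARTA, and to 33.0 to 220 CPM without SMARTA. The 6 melanoma markers summed to 6.87 to 9.69 CPM with SMARTA and 6.75 to 60.7 CPM without SMARTA, the highest being replicate 2. The 8 macrophage markers summed to 33.8 to 206 CPM with SMARTA and 43.6 to 178 CPM without SMARTA, the 6 neutrophil markers to 0.795 to 3.31 CPM with SMARTA and 2.78 to 54.5 CPM without SMARTA, and the 5 B cell markers to 12.6 to 62.1 CPM with SMARTA and 4.78 to 32.7 CPM without SMARTA. The 6 stroma and endothelium markers summed to 154 to 218 CPM with SMARTA and 82.1 to 132 CPM without SMARTA, with Pecam1 the highest of them in every library, and the 4 CD4 T cell markers to 124 to 147 CPM with SMARTA and 38.1 to 94.0 CPM without SMARTA. Of the CD4 list, Cd40lg was at 90.7 to 113 CPM with SMARTA and 25.2 to 66.5 CPM without SMARTA, and Zbtb7b at 25.9 to 45.4 CPM with SMARTA and 7.64 to 22.4 CPM without SMARTA, both without overlap. Cd4 itself overlapped between the groups, at 2.29 to 8.48 CPM with SMARTA and 0.65 to 6.57 CPM without SMARTA. Foxp3 overlapped too and went the other way, at 0 to 2.06 CPM with SMARTA and 0.630 to 10.8 CPM without SMARTA. Its means were 1.19 CPM with SMARTA and 4.42 CPM without SMARTA. The part of these cells in the values that follow was not tested.

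The 77 genes were selected by name in a comparison whose outcome was known, so their fold changes are given as a description. None was higher or lower at an adjusted p under 0.05 in edgeR's quasi-likelihood test, against a background of 1.52% of the 15896 tested genes called higher and 1.63% called lower with SMARTA, 3.15% in either direction. Their log2 fold changes, with over without SMARTA, lay below 0 for 61 genes and above 0 for 16. The median was -0.32, with quartiles of -0.50 and -0.12 and a range of -1.38 to 0.73. Over all genes tested the median was -0.003, the quartiles -0.49 and 0.44, and 50.2% lay below 0. A difference in bulk RNA of this kind cannot tell fewer cells of a type from less RNA per cell.

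At an unadjusted p under 0.05, 11 of the 77 genes (14.3%) were lower with SMARTA and 0 were higher, where 9.37% and 9.18% of all tested genes were. The groups did not overlap for 12 genes (15.6%), all lower with SMARTA, against 10.5% of all tested genes lower and 8.73% higher without overlap. Those 12 were Mrps6, Mrps10, Mrps25, Mrps27, Mrps28, Mrpl13, Mrpl17, Mrpl19, Mrpl40, Mrpl45, Mrpl47 and Mrpl48. Both shares lie somewhat above the background, no test was made of that difference, and neither is read as a result about the 77 genes.

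**Figure D1:**
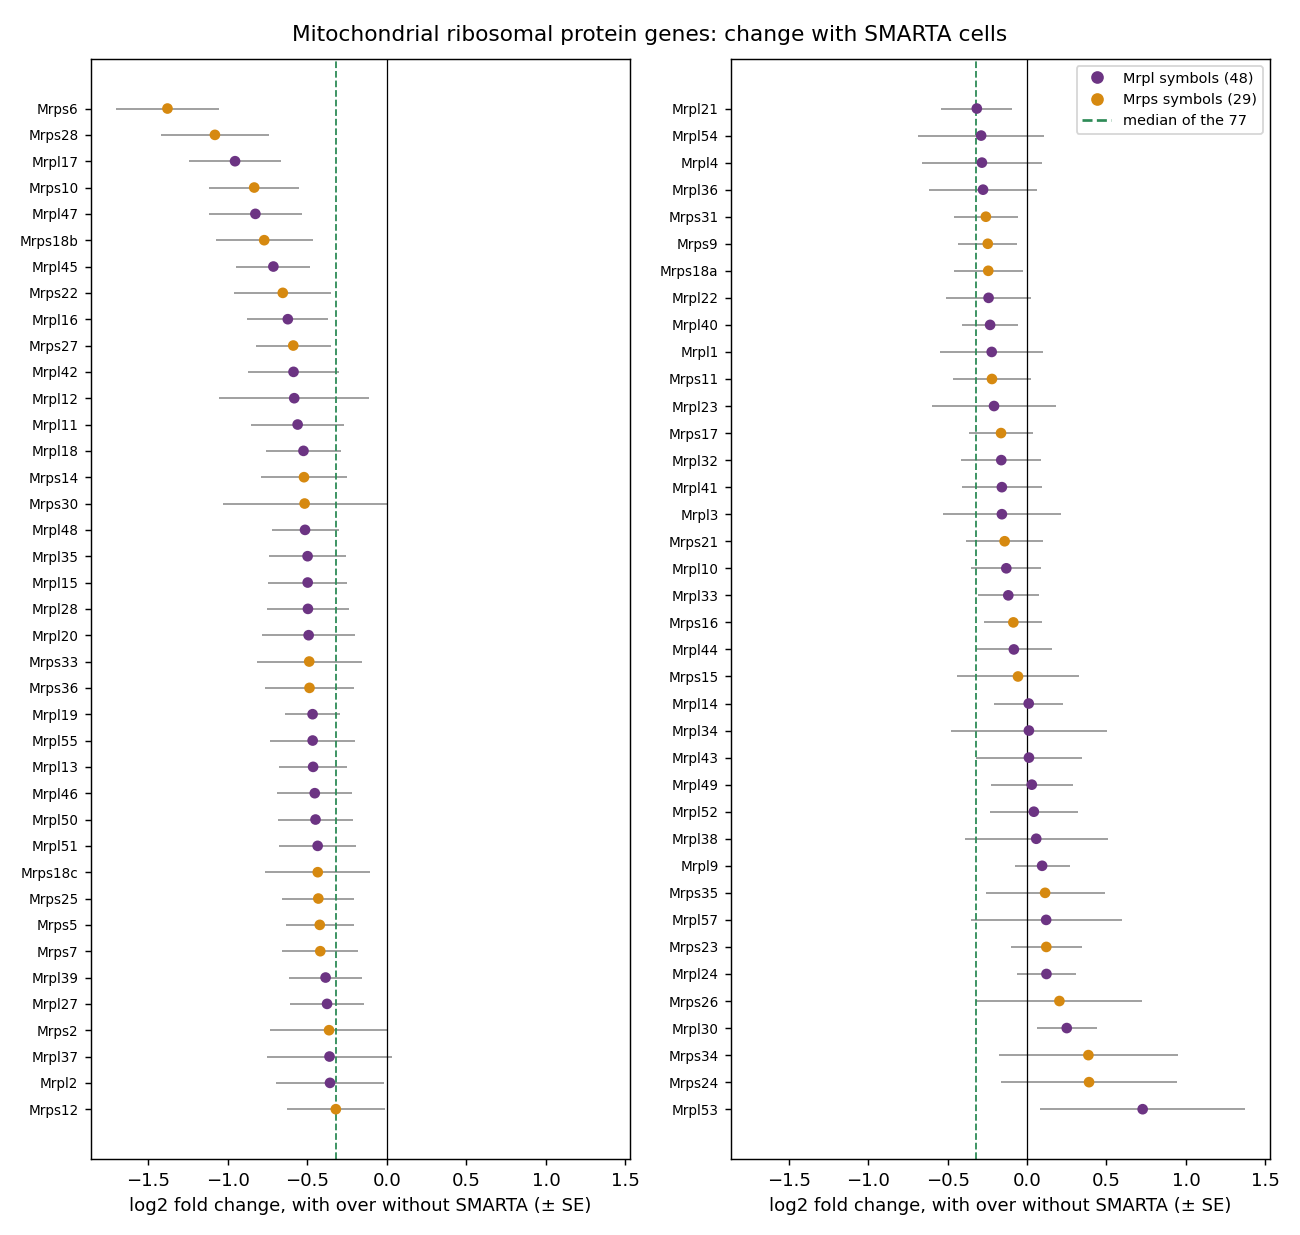
Log2 fold change, with over without SMARTA, of each of the 77 genes with its standard error (bars), sorted by size over both panels and coloured by subunit symbol, with a dashed line at the median. Most points lie left of 0, between -0.50 and -0.12 for the middle of the list, and no gene passed an adjusted p under 0.05.

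The large and small subunit symbols had similar medians. Among the 48 Mrpl genes the median log2 fold change was -0.30, 37 were below 0 and 7 did not overlap between groups. Among the 29 Mrps genes the median was -0.36, 24 were below 0 and 5 did not overlap. All genes without overlap under either prefix were lower with SMARTA. Of all tested genes, 50.2% lay below 0 and 10.5% were lower with SMARTA without overlap. No test separated the prefixes, because the members were selected with these values known.

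The promoters of 6 genes described below are shown to set 4 of the 5 genes with the smallest p below 0 beside 2 of those above 0, and the promoter of Mrps28, the other of the 5, is not shown. Each runs from 250 bases before to 50 bases after the RefSeq start on build GRCm38.p6, and is written 5′ to 3′ on the gene's own strand. Mrps6 lies at chr16:92058086-92058385 (plus strand), Mrpl17 at chr7:105811038-105811337 (minus strand), Mrpl45 at chr11:97315466-97315765 (plus strand), Mrps10 at chr17:47368947-47369246 (plus strand), Mrpl30 at chr1:37890227-37890526 (plus strand) and Mrpl24 at chr3:87919294-87919593 (plus strand). Capitals mark GGGCGG or its complement CCGCCC (the SP motif) in Mrps6 and Mrpl17, GCGCA, any base and GCGC on either strand (the NRF1 motif) in Mrpl17, Mrpl45 and Mrpl30, and ATTGG, the complement of CCAAT (the NF-Y motif), in Mrps10. Mrpl24 held none of the motifs searched.
Mrps6: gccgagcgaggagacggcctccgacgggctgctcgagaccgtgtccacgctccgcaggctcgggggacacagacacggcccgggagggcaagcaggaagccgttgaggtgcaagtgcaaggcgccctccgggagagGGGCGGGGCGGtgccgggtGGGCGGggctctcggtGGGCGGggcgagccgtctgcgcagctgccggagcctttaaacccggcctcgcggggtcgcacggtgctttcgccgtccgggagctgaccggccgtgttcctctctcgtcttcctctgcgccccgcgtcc
Mrpl17: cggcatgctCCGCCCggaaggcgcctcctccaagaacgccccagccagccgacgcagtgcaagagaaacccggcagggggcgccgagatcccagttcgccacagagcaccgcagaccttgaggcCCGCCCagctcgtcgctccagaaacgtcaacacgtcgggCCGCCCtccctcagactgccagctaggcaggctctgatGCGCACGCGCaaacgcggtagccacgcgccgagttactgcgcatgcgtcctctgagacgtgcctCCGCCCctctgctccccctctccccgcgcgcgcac
Mrpl45: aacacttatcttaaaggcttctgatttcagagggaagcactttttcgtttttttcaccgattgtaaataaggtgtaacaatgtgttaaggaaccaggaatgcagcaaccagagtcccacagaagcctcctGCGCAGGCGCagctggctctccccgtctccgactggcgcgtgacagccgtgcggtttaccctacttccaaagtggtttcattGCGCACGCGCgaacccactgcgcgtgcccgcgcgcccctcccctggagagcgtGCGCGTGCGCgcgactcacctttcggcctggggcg
Mrps10: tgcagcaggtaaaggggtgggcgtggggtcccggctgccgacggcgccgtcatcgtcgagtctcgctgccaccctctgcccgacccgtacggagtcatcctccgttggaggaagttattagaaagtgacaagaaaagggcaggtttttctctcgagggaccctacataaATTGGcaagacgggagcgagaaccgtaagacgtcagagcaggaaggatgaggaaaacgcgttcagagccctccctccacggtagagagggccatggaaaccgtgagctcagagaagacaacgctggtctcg
Mrpl30: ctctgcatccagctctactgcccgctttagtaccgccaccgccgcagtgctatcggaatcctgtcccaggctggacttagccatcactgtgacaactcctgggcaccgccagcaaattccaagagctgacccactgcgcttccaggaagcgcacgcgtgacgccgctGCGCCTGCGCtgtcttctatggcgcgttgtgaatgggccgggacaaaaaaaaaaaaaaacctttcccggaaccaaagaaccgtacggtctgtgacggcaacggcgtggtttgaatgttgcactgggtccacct
Mrpl24: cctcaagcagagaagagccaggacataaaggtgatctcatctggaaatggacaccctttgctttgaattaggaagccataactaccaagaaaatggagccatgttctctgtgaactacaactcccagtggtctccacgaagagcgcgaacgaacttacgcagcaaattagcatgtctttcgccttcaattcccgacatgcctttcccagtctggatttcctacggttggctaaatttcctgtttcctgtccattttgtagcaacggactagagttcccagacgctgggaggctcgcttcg

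RefSeq gave 74 promoters for 68 of the 77 genes. NRF1, a transcription factor known for nuclear genes of mitochondrial function, had its motif, GCGCA then any base then GCGC, in 13 of these 74 promoters (17.6%), against 4.60% of all 32851 promoters and 9.88% of the 11841 promoters of tested genes. The ETS motif CCGGAAGT, bound by the GA-binding protein among others, was in 12 (16.2%), against 3.89% of all and 8.03% of tested genes' promoters. The YY1 motif AAGATGGCG was in 8 (10.8%), against 1.40% and 3.01%. GGGCGG was in 39 (52.7%), against 35.7% and 61.0%, and CCAAT in 30 (40.5%), against 37.4% and 37.7%. CACGTG, the E-box bound by Myc among others, was in 7 (9.46%), against 7.15% and 9.72%, and TATAAA in 5 (6.76%), against 13.6% and 7.52%. Both strands were searched, and a match is a description of the letters only. Of the shown promoters, Mrpl45 held 3 NRF1 matches, and Mrpl30, on the other side of 0, held 1.

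Among the small subunit genes, Mrps6, a counterpart of bacterial protein S6 (chr16:92058270-92112227, plus strand), had 22.5, 22.1 and 14.0 CPM with SMARTA, against 31.6, 44.1, 64.8 and 63.3 CPM without SMARTA. All 3 libraries with SMARTA lay below all 4 without. Its log2 fold change was -1.38 ± 0.33 (SE), the lowest of the 77, with an edgeR adjusted p of 0.0597 over all tested genes. Leaving out any library kept it between -1.58 and -1.21. In the annotation, 15.1% of its exon bases are shared with Slc5a3, a myo-inositol transporter gene, whose log2 fold change was -0.47 with an edgeR adjusted p of 0.356. Reads that fell on both genes were not counted.

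Mrps28, a small subunit protein (chr3:8802146-8923918, minus strand), had 26.0, 17.9 and 9.20 CPM with SMARTA, against 36.9, 35.8, 38.2 and 39.1 CPM without SMARTA. The 4 libraries without SMARTA lay close together, and the 3 with SMARTA lay below them and far from each other. Its log2 fold change was -1.08 ± 0.34 (SE), edgeR adjusted p 0.131, and -1.47 with an adjusted p of 0.0403 without replicate 1 with SMARTA. It was -0.81 without replicate 3 with SMARTA, and Mrps28 was not called when any library other than replicate 1 with SMARTA was left out. Those other fits called 17 to 398 of all tested genes, against 907 without replicate 1 with SMARTA. Mrps10, a counterpart of bacterial S10 (chr17:47368887-47381417, plus strand), had 40.1, 32.4 and 20.2 CPM with SMARTA, against 65.6, 42.0, 55.8 and 57.2 CPM without SMARTA. The groups did not overlap, although replicate 1 with SMARTA and replicate 2 without SMARTA were close. The log2 fold change was -0.83 ± 0.28 (SE), edgeR adjusted p 0.161.

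Mrps18b, one of several mammalian relatives of bacterial S18, had 31.7, 18.4 and 16.2 CPM with SMARTA, against 46.1, 29.0, 34.4 and 41.5 CPM without SMARTA. The groups overlapped by 1 library on each side, and the log2 fold change was -0.77 ± 0.31 (SE), edgeR adjusted p 0.220. Mrps12, a protein of the decoding centre, had 61.0, 35.2 and 26.9 CPM with SMARTA, against 44.3, 45.7, 64.9 and 50.3 CPM without SMARTA. Replicate 1 with SMARTA lay among the libraries without SMARTA and the other 2 lay below them. Mrps22, a mitochondria-specific protein in which human mutations cause mitochondrial disease, had 15.0, 21.1 and 10.8 CPM with SMARTA, against 18.3, 23.7, 29.4 and 27.0 CPM without SMARTA. Its log2 fold change was -0.66 and that of Mrps12 -0.32, with edgeR adjusted p of 0.298 and 0.648.

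Among the large subunit genes, Mrpl17, a counterpart of bacterial L17 (chr7:105803206-105811099, minus strand), had 57.1, 39.9 and 24.96 CPM with SMARTA, against 68.7, 78.0, 81.0 and 87.7 CPM without SMARTA. All 3 libraries with SMARTA lay below the others, replicate 3 furthest. The log2 fold change was -0.96 ± 0.29 (SE), edgeR adjusted p 0.115, and -1.29 with an adjusted p of 0.0336 without replicate 1 with SMARTA. It was -0.74 without replicate 3 with SMARTA, and Mrpl17 was not called when any library other than replicate 1 with SMARTA was left out. Those other fits called 17 to 398 of all tested genes, against 907 without replicate 1 with SMARTA. Mrpl45, which in mammals holds the ribosome to the inner membrane near the exit of the nascent chain (chr11:97315716-97329920, plus strand), had 44.6, 38.3 and 48.0 CPM with SMARTA, against 91.0, 53.1, 67.6 and 74.7 CPM without SMARTA. The groups did not overlap, and the highest library without SMARTA was replicate 1. The log2 fold change was -0.71 ± 0.23 (SE), edgeR adjusted p 0.142, within -0.83 to -0.62 as each library was left out.

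Mrpl12 codes for the stalk protein that recruits translation factors and, in human cells, also binds the mitochondrial RNA polymerase. It had 76.2, 43.3 and 15.8 CPM with SMARTA, against 45.4, 64.3, 85.0 and 75.7 CPM without SMARTA. The libraries with SMARTA spanned a wider range than the groups differed by, and the log2 fold change of -0.58 ± 0.47 (SE, edgeR adjusted p 0.576) moved between -1.19 and -0.21 as single libraries were left out. Mrpl44, which has a ribonuclease-like fold, had 84.4, 54.7 and 46.5 CPM with SMARTA, against 64.0, 58.3, 72.3 and 67.4 CPM without SMARTA. Mrpl41, a mitochondria-specific protein, had 66.6, 40.3 and 43.2 CPM with SMARTA, against 71.5, 50.6, 52.4 and 49.1 CPM without SMARTA. Their log2 fold changes were -0.08 and -0.16, and the groups overlapped in both.

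Another 5 genes were among the 11 below an unadjusted p of 0.05. Mrpl47 averaged 14.0 ± 3.16 CPM with SMARTA and 24.8 ± 6.08 CPM without SMARTA (SD, n = 3 and 4), and Mrps27, which belongs to the pentatricopeptide repeat family, 29.0 ± 4.67 CPM with SMARTA and 43.6 ± 7.53 CPM without SMARTA. Mrpl19 averaged 56.3 ± 3.10 CPM with SMARTA and 77.8 ± 5.89 CPM without SMARTA, and Mrpl48 29.3 ± 1.04 CPM with SMARTA and 41.9 ± 6.19 CPM without SMARTA. These 4 did not overlap between groups, with log2 fold changes of -0.83, -0.59, -0.47 and -0.52 in the order given. Mrpl16, a counterpart of bacterial L16, averaged 46.2 ± 10.4 CPM with SMARTA and 71.1 ± 16.5 CPM without SMARTA, a log2 fold change of -0.62 with overlap. The edgeR adjusted p of all 5 lay between 0.171 and 0.233.

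On the other side, 16 genes lay above 0, and the 5 with the smallest p are given here with Mrps23 and Mrps35. Mrpl30 had 76.4, 69.9 and 79.4 CPM with SMARTA, against 74.7, 60.4, 53.3 and 64.6 CPM without SMARTA, a log2 fold change of 0.25 ± 0.19 (SE, edgeR adjusted p 0.549). Mrpl24 had 76.8, 68.0 and 92.8 CPM with SMARTA, against 80.2, 72.9, 69.3 and 68.7 CPM without SMARTA, a log2 fold change of 0.12 ± 0.19 (SE, edgeR adjusted p 0.793) that was -0.042 when libraries were scaled by their totals. Both overlapped between groups, and both are counterparts of bacterial large subunit proteins. Mrps23, a mitochondria-specific protein, had 142, 86.8 and 109 CPM with SMARTA, against 125, 85.6, 100.1 and 103 CPM without SMARTA, and its log2 fold change of 0.12 was -0.100 without replicate 1 with SMARTA. Its groups overlapped.

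Mrpl53, Mrps24 and Mrps34, the others with the smallest p on this side, had low counts. Mrpl53 had 2.04, 0.868 and 0.588 CPM with SMARTA, against 0.344, 0.674, 1.10 and 0.696 CPM without SMARTA, and its log2 fold change of 0.73 ± 0.65 (SE, edgeR adjusted p 0.617) was 0.050 without replicate 1 with SMARTA. Mrps24, a counterpart of bacterial S3, had 8.50, 6.24 and 2.03 CPM with SMARTA, against 2.96, 3.52, 7.66 and 2.93 CPM without SMARTA. Mrps34, mutated in some human families with Leigh syndrome, had 6.72, 4.58 and 1.44 CPM with SMARTA, against 1.74, 3.09, 5.14 and 3.04 CPM without SMARTA. Their log2 fold changes were both 0.39, and without replicate 1 with SMARTA they were -0.030 for Mrps24 and -0.099 for Mrps34. Mrps35 had 17.3, 19.3 and 8.85 CPM with SMARTA, against 8.12, 15.6, 18.1 and 14.3 CPM without SMARTA, and its log2 fold change of 0.11 was -0.027 when libraries were scaled by their totals. In these 4 genes the groups overlapped.

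**Figure D2:**
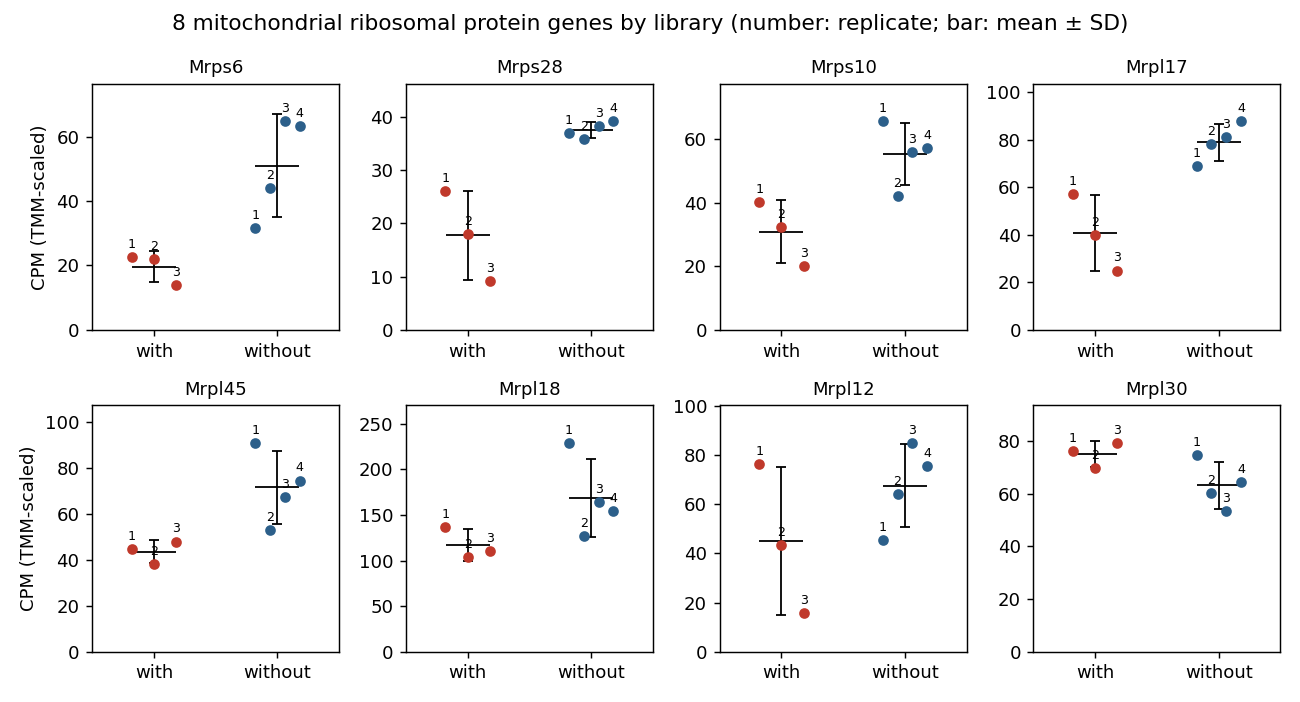
TMM-scaled CPM of 8 genes in each library on axes that start at 0, with the 3 libraries with SMARTA left of the 4 without SMARTA in each panel. Numbers are replicates, and bars show the mean ± SD of each group. Mrps6, Mrpl17, Mrps28, Mrps10 and Mrpl45 do not overlap between groups, while Mrpl12 spans 15.8 to 76.2 CPM with SMARTA alone.

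Levels differed far more among the genes than between the groups. Mean CPM over all 7 libraries ran from 0.900 to 180 with a median of 48.3. Per kilobase of counted exon the median was 21.5 CPM, against 67.2 for cytosolic ribosomal proteins and 57.1 for nuclear oxidative phosphorylation genes. Mrpl18, which in human cells is also known to help bring ribosomal RNA from the cytosol into mitochondria, was highest at 105 CPM per kilobase, followed by Mrpl28 at 77.8, Mrpl4 at 68.9 and Mrps23 at 68.8, all on that scale. Mrps30 was lowest at 0.460 CPM per kilobase. The counted length spans every annotated isoform of a gene, so the levels of genes with long isoforms read low.

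The highest of these genes overlapped between groups. Mrpl18 had 137, 104 and 111 CPM with SMARTA, against 229, 127, 164 and 155 CPM without SMARTA, a log2 fold change of -0.52 ± 0.24 (SE, edgeR adjusted p 0.280). Mrpl28 had 112, 62.0 and 66.4 CPM with SMARTA, against 129, 92.8, 124 and 107 CPM without SMARTA. Mrpl4 had 219, 173 and 89.1 CPM with SMARTA, against 109.6, 182, 289 and 201 CPM without SMARTA. In Mrpl28 the overlap came from replicate 1 with SMARTA alone, while in Mrpl4 only replicate 3 with SMARTA lay outside the range without SMARTA. Mrps30 had 2.14, 4.02 and 1.21 CPM with SMARTA, against 3.53, 5.48, 2.28 and 2.81 CPM without SMARTA, and Mrps36 had 10.5, 7.71 and 6.97 CPM with SMARTA, against 14.1, 10.1, 11.7 and 11.2 CPM without SMARTA. Both overlapped between groups.

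Exons shared with neighbouring genes were counted from the annotation. For 31 of the 77 genes the annotation shares exon bases with another gene, and for 3 over 50% of the exon bases are shared: Mrpl53 with 88.0%, Mrps34 with 77.8% and Mrps25 with 69.8%. Reads on such bases were left out of the counts. The 5 genes under 10 CPM had a median shared part of 15.4%, against 0% for the other genes. Mrps33, 1 of those 5, averaged 7.67 CPM and shared no exon bases, whereas Mrps25 averaged 38.02 CPM. The part of shared exons in the levels was not tested.

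Summed over the 77 genes, the level was 4278, 3325 and 2988 CPM in replicates 1 to 3 with SMARTA, against 4788, 3832, 4473 and 4491 CPM in replicates 1 to 4 without SMARTA. The means were 3530 ± 669 CPM with SMARTA and 4396 ± 403 CPM without SMARTA (SD, n = 3 and 4). Replicate 1 with SMARTA lay within the range of the libraries without SMARTA, and the other 2 lay below it. As a share of all counts the genes took 0.408%, 0.323% and 0.267% with SMARTA, against 0.499%, 0.426%, 0.453% and 0.460% without SMARTA.

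The same order of libraries was seen over single genes. Against the mean of the libraries without SMARTA, the median log2 ratio of the 77 genes was -0.05, -0.39 and -0.58 in replicates 1 to 3 with SMARTA, and 0.21, -0.14, -0.02 and 0.04 in replicates 1 to 4 without SMARTA. The SD of these library medians was 0.266 with SMARTA and 0.145 without SMARTA. Of the 77 genes, 41, 63 and 70 lay below that mean with SMARTA, and 28, 65, 41 and 30 without SMARTA. Replicate 1 with SMARTA thus sat near the libraries without SMARTA, and replicate 2 without SMARTA had more genes below the mean than replicate 2 with SMARTA.

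**Figure D3:**
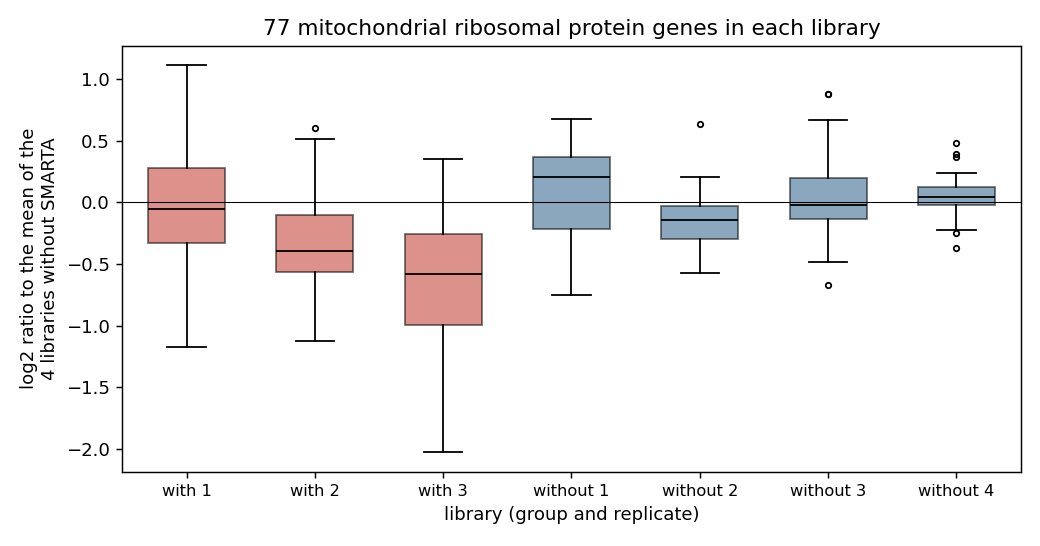
Log2 ratio of each of the 77 genes to its mean over the 4 libraries without SMARTA, one box per library (line at the median, box over the quartiles, whiskers to the last gene within 1.5 times the box, points beyond). Medians with SMARTA are -0.05, -0.39 and -0.58, and medians without SMARTA lie between -0.14 and 0.21.

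The libraries that stood apart change what is called. Without replicate 1 with SMARTA, the median log2 fold change of the 77 genes was -0.48, 71 lay below 0, and Mrps28 and Mrpl17 were called lower by edgeR, against a background of 2.37% of tested genes called lower. Without that library and replicate 2 without SMARTA, the median was -0.51 and 5 genes were called lower (Mrps28, Mrpl17, Mrpl28, Mrps18b and Mrps10), against 3.95% of tested genes. DESeq2 on all 7 libraries called 5 genes lower (Mrps6, Mrps10, Mrps28, Mrpl17 and Mrpl45), against 5.74% of tested genes called lower. In either case 5 genes are 6.49% of the 77. Mrps6 alone was called lower by edgeR with upper-quartile scaling (1.85% of tested genes lower), with scaling by library totals (2.5%), with no filter (1.06%), with a minimum of 5 CPM in 3 libraries (5.23%) and at an adjusted p under 0.1 (3.69%), and limma-voom called 0 of the 77 (1.7%). Without replicate 3 with SMARTA, 0 of the 77 genes were called by edgeR and the median was -0.27. In that fit only 53 of all tested genes were called in either direction. Scaling by library totals moved the median of all tested genes to -0.16 and that of the 77 genes to -0.47.

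Base composition went with the difference between some replicates of a group and not others. The longest protein-coding transcripts of the 77 genes held 39.6% to 60.6% GC, with a median of 50.1%. Across the 77 genes, GC content and the log2 ratio of replicate 1 over replicate 3, both with SMARTA, had a Pearson correlation of 0.543 (Spearman 0.541), and GC content and the log2 ratio of replicate 3 over replicate 1, both without SMARTA, one of 0.493 (Spearman 0.494). For replicate 1 over replicate 2 with SMARTA the Pearson correlation was 0.578 (Spearman 0.578), and for replicate 4 over replicate 2 without SMARTA it was -0.155 (Spearman -0.182). These are descriptions across genes, which share their libraries and are no replicates. With the log2 fold change between groups the Pearson correlation over the 77 genes was 0.185 (Spearman 0.202).

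In bins of GC content, the median log2 ratio of replicate 1 over replicate 3 with SMARTA was 0.02 for the 14 genes under 45% GC, 0.26 for the 24 from 45% to 50%, 0.67 for the 23 from 50% to 55% and 1.36 for the 16 at 55% or more. For replicate 3 over replicate 1 without SMARTA it was -0.56, -0.23, -0.32 and 0.71 in the same bins. The median log2 fold change between groups was -0.44, -0.40, -0.32 and -0.26 in the same bins. Every bin lay below 0 for the comparison of groups. At 55% GC or more, both pairs of replicates differed by more than the groups did. From 50% to 55%, replicates 1 and 3 with SMARTA also did, while the pair without SMARTA was about level with the groups. Under 45%, replicates 3 and 1 without SMARTA differed by more than the groups did. From 45% to 50% neither pair did. The part of base composition in the comparison of groups was not tested.

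**Figure D4:**
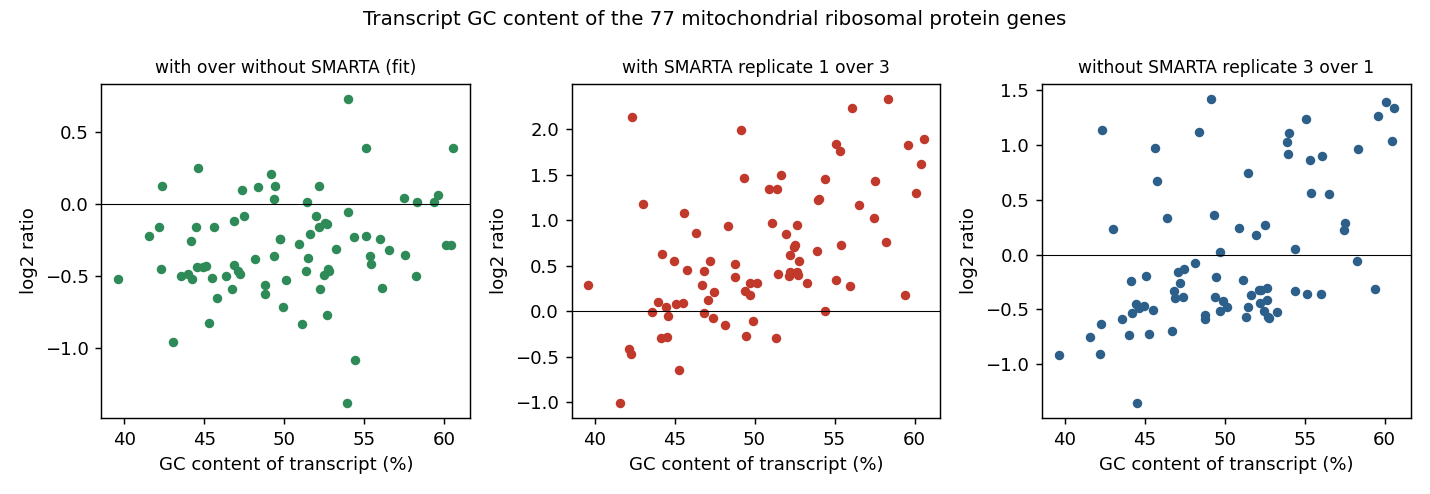
GC content of each gene's longest protein-coding transcript against the log2 fold change between groups (left), the log2 ratio of replicate 1 over replicate 3 with SMARTA (middle) and the log2 ratio of replicate 3 over replicate 1 without SMARTA (right), with 1 point per gene of the 77. The points climb with GC content in the middle and right panels (Pearson correlations 0.543 and 0.493) and less in the left one (0.185).

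The other genes of the mitochondrial translation pathway were read from lists of genes by role. Of 6 mitochondrial ribosomal proteins with other symbols, 0 were called, and 4 lay below 0 with a median log2 fold change of -0.17. Dap3, a GTP-binding protein of the small subunit, was at -0.34 and Chchd1 at -0.44. Of 13 tested translation factors 0 were called, with a median of -0.13 and 9 below 0, and the smallest p were those of Mtrf1l, a release factor, at -0.74 and Mtif3, an initiation factor, at 0.44. Of 29 assembly and ribosomal RNA modification factors 0 were called, with a median of 0.08 and 14 below 0. Lrpprc, which stabilises mitochondrial messenger RNAs, had 12.7, 14.9 and 12.8 CPM with SMARTA, against 27.2, 30.7, 28.0 and 23.6 CPM without SMARTA. The groups did not overlap, and its log2 fold change was -1.02 ± 0.23 (SE) with an edgeR adjusted p of 0.0505.

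Upstream of translation, 0 of 16 genes for transcription and upkeep of mitochondrial DNA were called, with a median log2 fold change of -0.13 and 11 below 0, among them Top1mt, the mitochondrial topoisomerase, at -1.43 (edgeR adjusted p 0.0685) and Tfam, the factor that packages mitochondrial DNA, at -0.47. Of 14 tested regulators of nuclear mitochondrial genes 0 were called, with a median of 0.01 and 7 below 0, and Myc, which drives growth genes in T cells, was at -1.30 with an edgeR adjusted p of 0.122. Lonp1, the protease of the mitochondrial matrix, was at -1.33 with an edgeR adjusted p of 0.0699. Of 17 mitochondrial aminoacyl-tRNA synthetases 0 were called, with a median of -0.19 and 10 below 0. Of 27 genes of protein import, the route by which the ribosomal proteins reach the organelle, 0 were called, with a median of -0.37 and 25 below 0, and the channel subunit Timm17a was at -0.71 and the chaperone Timm8a1 at -1.66.

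Mitochondrial DNA encodes the ribosomal RNAs of the organelle and the proteins made there. Its 10 tested transcripts, the ribosomal RNAs mt-Rnr1 and mt-Rnr2 and 8 that code for proteins, all lay below 0, with 0 called and a median log2 fold change of -1.06. Their sum was 1912, 3842 and 4588 CPM with SMARTA, against 5176, 11532, 3041 and 4452 CPM without SMARTA, so the groups overlapped. Replicate 2 without SMARTA was highest and replicate 1 with SMARTA lowest, and without these libraries the median was -0.01. mt-Nd4l, mt-Co2, mt-Co3, mt-Atp6 and mt-Atp8 were at or near 0 in every library and stand outside these figures.

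Other abundant housekeeping lists had medians like that of the mitochondrial ribosomal proteins. Of 84 cytosolic ribosomal proteins 0 were called, 72 lay below 0 and the median was -0.27, and of 81 nuclear oxidative phosphorylation genes 0 were called, 73 lay below 0 and the median was -0.31. Proliferation genes lay further below 0. Of 18, 13 were called lower with SMARTA and 0 higher, where 1.63% and 1.52% of all tested genes were. The median of the 18 was -2.40. Ube2c, a ubiquitin-conjugating enzyme of mitosis, fell by 3.30 on the log2 scale (edgeR adjusted p 0.0131), and Plk1, Cdc20 and Rrm2 were called at -2.76, -2.36 and -2.55. The 18 genes summed to 737, 1172 and 1355 CPM with SMARTA, against 5078, 2448, 4314 and 4053 CPM without SMARTA, which did not overlap. Of the 18, 0 were called without replicate 4 without SMARTA or without replicate 2 with SMARTA. In those fits only 17 and 37 of all tested genes were called, in that order, against 500 in the main fit. The part of proliferation in the values of the mitochondrial ribosomal proteins was not tested.

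**Figure D5:**
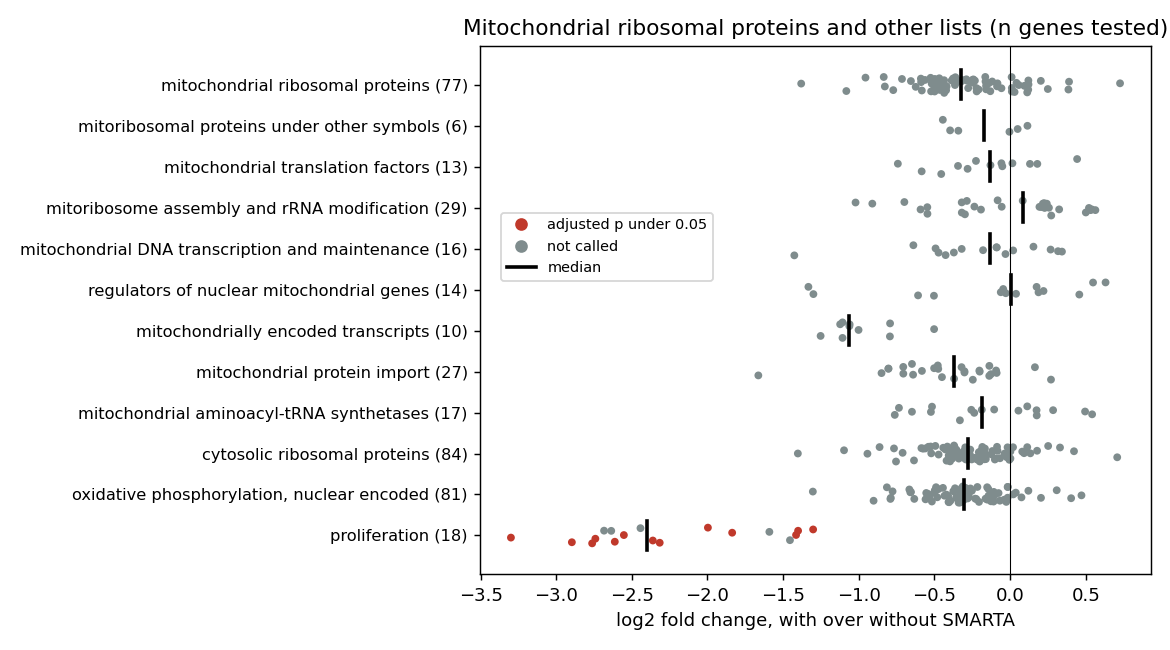
Log2 fold change, with over without SMARTA, of each tested gene in the mitochondrial ribosomal protein list and in 11 other lists, with a bar at each median and called genes in red. The medians of mitochondrial ribosomal proteins, cytosolic ribosomal proteins and nuclear oxidative phosphorylation genes are -0.32, -0.27 and -0.31, and called genes stand in the proliferation list only.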

How the data were processed

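RNA from sorted CD8 T cells was amplified from poly(A) ends with SMART-seq V4 and sequenced as read pairs, per the labels' protocols. The deposited values are raw counts per gene. The authors aligned with STAR 2.6.0c and counted with featureCounts 1.6.2 on GRCm38.p6, per the submitters' processing notes. The command in the file headers counts read pairs by gene name, without strand, so that reads on several genes or places were left out.

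Genes passing edgeR's filterByExpr (minimum count 10, minimum total 15; 15896 of 53656 rows) were fitted with edgeR 4.0.16 (TMM, robust quasi-likelihood) in R 4.3.3 over all 7 libraries, and p-values were adjusted by Benjamini-Hochberg over all of them. SE is the size of the log2 fold change divided by the square root of F. DESeq2 1.42.0 and limma-voom 3.58.1 were alternatives, beside other scalings, filters and left-out libraries. On simulated counts with the fitted spread, 69.2% of 91 genes changed 4-fold and 11.0% of 109 changed 2-fold were recovered. The changed genes were drawn only from genes above a mean of 5 CPM, so these rates do not cover lower genes. In that run 5 unchanged genes were called. Per-library log2 ratios used CPM plus 0.5.

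The members and lists were chosen with earlier results of these data known. Genes named were the 5 with the smallest p in each direction, the 4 highest and 3 lowest by CPM per kilobase and 10 set by role, with the 2 of smallest p (up to 4 called) in other lists; other names were chosen after their values were seen. Promoters are RefSeq's on GRCm38.p6. GC content was read from GENCODE M21 transcripts on GRCm38 and was found for all 77 genes; it was found for only 72.5% of tested genes, so a comparison with the other genes was void and is not given. Replicates differed beyond counting noise in every pair. Totals per library were 49438357, 42680170 and 38092722 counts with SMARTA and 47382620, 41341343, 48572380 and 46310426 counts without SMARTA, and floors cover counting error only.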

Additional observations from a re-analysis of the deposited data

Results flagged for a closer look

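Among 29 values looked at over the 4 libraries without SMARTA, 2 had a library far from the others, where chance gives about 1 in 20. Mrps24 was at 7.66 CPM in replicate 3 and at 2.93 to 3.52 CPM in the other 3. Mrpl41 was at 71.5 CPM in replicate 1 and at 49.1 to 52.4 CPM in the other 3.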

How the results depend on the processing

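The count of mitochondrial ribosomal protein genes called lower, 0 in the main edgeR test, was 1 (Mrps6) with upper-quartile scaling, with scaling by library totals, with no filter, with a minimum of 5 CPM in 3 libraries and at an adjusted p under 0.1. It was 5 with DESeq2, 0 with limma-voom, 0 to 2 as each library was left out, and 5 without replicate 1 with SMARTA and replicate 2 without SMARTA. The median log2 fold change, -0.32, was -0.47 with library totals, -0.48 to -0.27 as each library was left out, and -0.51 without both libraries; it kept its sign in each. All tested genes called numbered 500, and 17 to 907 as each library was left out. No pairing by replicate number was seen. Correlations between libraries of the same number were -0.139, 0.026 and -0.274, and 0 of 3 libraries with SMARTA correlated best with their own number. So few pairs cannot show whether libraries of the same number belong together. With a replicate block 0 genes were called, and the median of the 77 genes was -0.31. Of 388 values of the 23 named genes under alternatives, 13 reversed, in 6 genes whose main log2 fold change lay between -0.08 and 0.39. Left-out libraries gave -0.030 to 0.83 for Mrps24, -0.099 to 0.77 for Mrps34, -0.038 to 0.22 for Mrpl24, -0.100 to 0.28 for Mrps23, -0.11 to 0.37 for Mrps35 and -0.38 to 0.050 for Mrpl44. Library totals gave -0.042 for Mrpl24, -0.033 for Mrps23 and -0.027 for Mrps35. Leaving out both libraries gave -0.12 for Mrps24, -0.13 for Mrps34 and -0.16 for Mrps23. Mrpl44 kept its sign without both libraries, at -0.42. The cause of these changes was not tested.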

Other observations

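5 pseudogene rows stood outside the rule on symbols. Mrpl23-ps1 averaged 1.66 CPM with SMARTA and 2.79 CPM without SMARTA, Mrps36-ps1 0.582 CPM with SMARTA and 0.571 CPM without SMARTA, and Mrpl48-ps 0.324 CPM with SMARTA and 0.519 CPM without SMARTA. Mrps36-ps2 was lower still and Mrps36-ps3 was at 0 in every library. Reads that match a gene and its pseudogene equally were left out of both.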
